A study of Homo sapiens with 26 samples.

Results

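The comparison described here sets glucocorticoid receptor (GR) binding after 1 h of interleukin-1β (IL1B, 1 ng/ml) plus the synthetic glucocorticoid budesonide (300 nM) against untreated cells (NS), both in cells infected with Ad-IκBαΔN, an adenovirus that carries a blocker of the transcription factor NF-κB. Its members are the 10740 GR-bound regions, each 400 bp wide, that carry a deposited value in both groups, out of 10740 in the whole table. They rest on 4 of the 26 libraries of the study, 2 untreated and 2 treated, which per the labels come from 2 independent experiments with the GR antibody GR356. The cells were A549, a long-established human line grown from a lung carcinoma and used as a model of alveolar type II epithelium, kept in serum-free medium before treatment. Set beside this comparison were IL1B plus budesonide against untreated cells under the control virus Ad-GFP, and budesonide alone (300 nM, 1 h) against the same untreated Ad-IκBαΔN cells. The study asked how NF-κB alters where GR binds.

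The authors deposited 1 log2 value per region and group, so the 2 libraries of a group cannot be seen apart and no difference below has a replicate error or a test. A region was called higher or lower when its log2 difference was at least 1 in size, which is 2-fold on the log2(signal + 1) scale, and signal denotes the linear value, read as mean coverage per base. Every fold below is a ratio of signal + 1, so it differs from the ratio of the printed signals, most where signal is low. The virus delivers the inhibitor to a whole culture by overexpression, and how completely NF-κB was blocked in these cells was not measured in the GR table. A table of GR binding also cannot check the identity of the cells by expression. Values stand on a scale that may differ between groups, so each difference is best read against the median difference over all regions.

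GR is held outside the nucleus by chaperones until a glucocorticoid binds it, and then occupies DNA mainly at glucocorticoid response elements (GREs), palindromes of AGAACA and TGTTCT half-sites 3 bases apart. IL1B activates NF-κB by triggering the destruction of its inhibitor IκBα, which frees subunits such as RELA to bind κB sites near cytokine, chemokine and adhesion genes. IκBαΔN lacks the part of IκBα whose phosphorylation marks it for destruction, so it keeps holding NF-κB when the cytokine arrives.

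The sequences below are examples, shown because over all regions the size of the difference went with the motif at the region. They come from the hg38 reference, plus strand, 5′ to 3′, with the motif in capitals and 50 bases on either side. The first 4 hold a GRE, with no mismatch at DDIT4, 1 mismatch at PER1 and PRR20G, and 2 at ERRFI1, and had log2 differences between 4.61 and 7.27. The other 5 hold a κB motif on one of the strands, and had log2 differences between -0.52 and 1.87 under Ad-IκBαΔN while all were above 4 under Ad-GFP. Those at CCL2 and BIRC3, 1.87 each, lay above the median of 1.48 over all regions. Not every region with a κB motif had a small difference: the lead regions of NFKBIA and CEBPB, not shown, had 5.74 and 3.03. The regions at PRR20G and SERPINA2 lie in short tandem repeats.
DDIT4 GRE, chr10:72248932-72249046: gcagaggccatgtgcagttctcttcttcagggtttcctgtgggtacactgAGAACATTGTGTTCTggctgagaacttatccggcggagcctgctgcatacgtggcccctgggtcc
PER1 GRE, chr17:8154410-8154524: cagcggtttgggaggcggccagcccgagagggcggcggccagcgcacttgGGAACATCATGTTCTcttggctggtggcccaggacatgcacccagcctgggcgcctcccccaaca
PRR20G GRE, chr3:127304294-127304408: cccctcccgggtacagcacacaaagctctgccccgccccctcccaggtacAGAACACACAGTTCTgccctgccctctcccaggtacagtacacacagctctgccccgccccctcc
ERRFI1 GRE, chr1:8071053-8071167: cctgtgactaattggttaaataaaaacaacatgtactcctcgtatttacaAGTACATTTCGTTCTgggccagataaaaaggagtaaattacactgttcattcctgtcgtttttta
CCL2 κB, chr17:34252625-34252734: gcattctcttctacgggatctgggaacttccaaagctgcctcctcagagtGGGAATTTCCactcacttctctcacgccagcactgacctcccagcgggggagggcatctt
BIRC3 κB, chr11:102317299-102317408: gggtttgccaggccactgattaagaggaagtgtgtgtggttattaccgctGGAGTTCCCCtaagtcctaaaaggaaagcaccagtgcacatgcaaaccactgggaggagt
SERPINA2 κB, chr14:94346105-94346214: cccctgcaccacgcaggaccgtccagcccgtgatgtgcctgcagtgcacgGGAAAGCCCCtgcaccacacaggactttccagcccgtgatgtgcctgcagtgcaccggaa
TULP4 κB, chr6:158300480-158300589: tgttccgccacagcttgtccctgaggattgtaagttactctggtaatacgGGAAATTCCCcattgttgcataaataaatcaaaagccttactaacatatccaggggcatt
NR3C2 κB, chr4:148350258-148350367: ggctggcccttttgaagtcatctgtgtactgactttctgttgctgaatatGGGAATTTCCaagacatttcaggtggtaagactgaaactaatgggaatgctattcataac

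With NF-κB inhibited, IL1B plus budesonide went with more GR at most regions. The regions were listed as GR-bound, so if glucocorticoid-treated cells went into that list, the direction follows in part from it. The median signal was 7.79 untreated and 23.6 with IL1B plus budesonide. Of the 10740 regions, 7426 were at least 2-fold higher (69.1%) and 5 were at least 2-fold lower (0.0466%). The median log2 difference was 1.48, with quartiles of 0.85 and 2.17 across regions, and 99% of regions stood below 4.47, a 22.2-fold difference. Under Ad-GFP the same treatment had a median log2 difference of 2.49, with 10066 regions higher (93.7%) and 0 lower (0%). Budesonide alone under Ad-IκBαΔN, compared with the same untreated values and so not independent of them, had a median of 1.37, and 6373 regions were higher (59.3%) and 114 lower (1.06%). These counts depend on the scale: 1789 regions were higher and 1413 lower after the groups were re-centred to a common median, 2219 and 2279 after quantile normalization, and 1003 and 3041 after centring on the authors' unchanged class.

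The regions called under the 2 viruses overlapped in 6855 regions, which is 92.3% of those called under Ad-IκBαΔN and 68.1% of those called under Ad-GFP. The first share stands beside the 93.7% of all regions called under Ad-GFP. A further 3211 regions were called under Ad-GFP alone, 571 under Ad-IκBαΔN alone and 103 under neither. The difference under Ad-GFP was then subtracted from that under Ad-IκBαΔN. By this measure 5185 regions were at least 2-fold lower with the inhibitor (48.3%) and 832 at least 2-fold higher (7.75%), with a median of -0.93. The median log2 signal, untreated and treated, was 3.14 and 4.62 under Ad-IκBαΔN and 3.10 and 5.55 under Ad-GFP. A change of scale between groups would shift the median of -0.93 and these counts. No difference between viruses, here or below, was rescaled to check this. The 2 untreated groups already differed from each other, with quartiles of -0.35 and 0.46 and an SD of 0.61 across regions, with 774 regions above Ad-GFP by 2-fold or more and 298 below it. Those values enter the difference between viruses, and their part in it was not tested.

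The authors had sorted the regions into increasing, unchanged and decreasing classes by a rule not given in the sources used here. If GR signal of the Ad-GFP groups went into that rule, the order of the classes under Ad-GFP follows in part from it. Under Ad-IκBαΔN the increasing class had the smallest difference of the 3, with a median of 0.86. In it 1816 of 4345 regions were higher (41.8%, against 69.1% of all regions). The unchanged class had a median of 1.94 with 2951 of 3411 regions higher (86.5%). The decreasing class had a median of 1.86 with 2659 of 2984 higher (89.1%). Under Ad-GFP the increasing class had the largest median, 2.94, followed by 2.46 in the unchanged and 1.81 in the decreasing class. The increasing class thus stood 2.05 lower with the inhibitor on the median of its log2 differences, while the median of the decreasing class was 0.11. In that comparison 3661 of the 4345 regions of the increasing class were at least 2-fold lower (84.3%, against 48.3% of all regions). Within the increasing class, signal in untreated Ad-IκBαΔN cells had a median of 7.84, with budesonide 9.57 and with IL1B plus budesonide 15.0, against 63.6 with IL1B plus budesonide under Ad-GFP. Set against the median over all regions, the increasing class was below it and the other two above it as deposited and under every other setting tried, by -0.68 to -0.50, 0.35 to 0.47 and 0.25 to 0.41, although the median of the increasing class itself was negative after re-centring (-0.62), quantile normalization (-0.64) and centring on the unchanged class (-1.07).

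**Figure D1:**
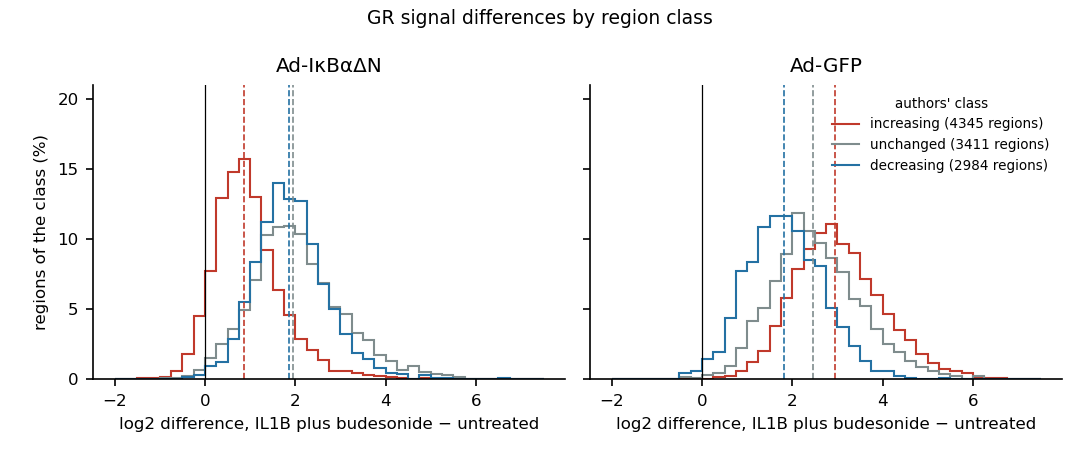
Distribution of the log2 difference in GR signal, IL1B plus budesonide minus untreated, in each of the authors' region classes under Ad-IκBαΔN (left) and Ad-GFP (right); lines are percentages of the regions of a class in bins of 0.25 and dashed lines are class medians. The increasing class has the lowest median under Ad-IκBαΔN (0.86) and the highest under Ad-GFP (2.94), and after re-centring its Ad-IκBαΔN median is -0.62.

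Regions with larger differences under Ad-IκBαΔN held GREs more often and κB motifs less often. A GRE, allowing up to 2 mismatches among the 12 fixed bases, was present in 14.7% of all regions, against 2.63% of windows of the same length 5 kb away. Its share was 2.53% of the 356 regions with a difference below 0 (Wilson 95% confidence interval 1.34 to 4.73), 11.8% of the 2138 between 1 and 1.5 (10.5 to 13.2) and 36.8% of the 204 at 4 or more (30.4 to 43.6). The κB motif, searched on both strands as the standard decamer, was found in 21.3% of all regions and 3.90% of windows 5 kb away. It was held by 46.9% of regions below 0 (41.8 to 52.1), 23.7% between 1 and 1.5 (22.0 to 25.6) and 2.94% at 4 or more (1.35 to 6.27). The AP-1 motif, TGACTCA or TGAGTCA, showed no such gradient, with 21.9% below 0, 23.9% between 1 and 1.5 and 19.1% at 4 or more, all above the 6.98% in windows 5 kb away. The forkhead motif TGTTTAC was in 11.0% of regions below 0 (8.12 to 14.6), 10.4% between 0.5 and 1 (9.11 to 11.9), 16.0% between 3 and 4 (13.5 to 18.9) and 11.8% at 4 or more (8.03 to 16.9), against 5.57% in those windows. Single half-sites, AGAACA or TGTTCT, which every exact GRE also contains, were found in 103 of 356 regions below 0 and 102 of 204 at 4 or more. The intervals cover counting error over regions, which are not replicates, and GC content also moved with the difference, from a median of 40.6% in regions below 0 to 50.2% in those at 4 or more; its part in these shares was not tested.

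**Figure D2:**
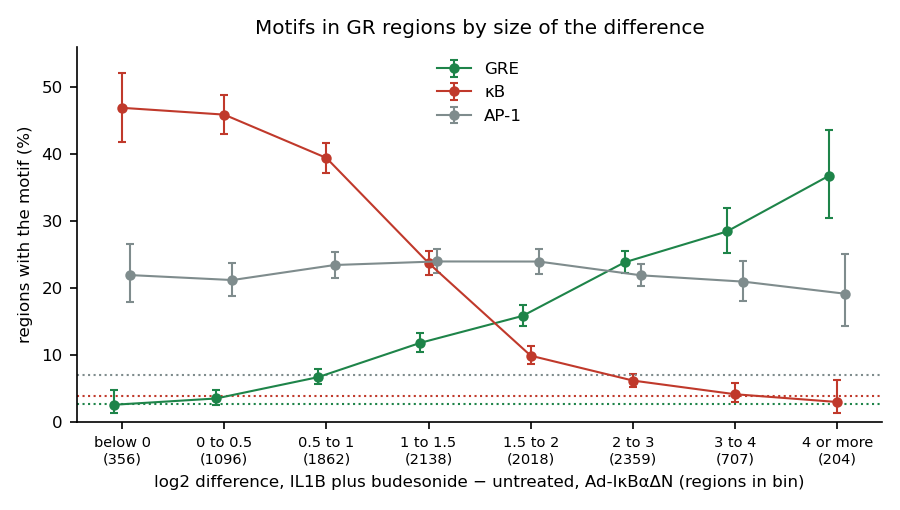
Share of regions with a GRE, κB or AP-1 motif in bins of the log2 difference, IL1B plus budesonide minus untreated, under Ad-IκBαΔN; bars are Wilson 95% intervals, dotted lines of the same colour are shares in windows 5 kb away, and the number of regions stands under each bin. The GRE share runs from 2.53% to 36.8% and the κB share from 46.9% to 2.94% between the lowest and the highest bin.

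Taken by motif, the 1445 regions with a GRE and no κB motif had a median log2 difference of 2.12, close to their 2.05 under Ad-GFP. Of these, 1321 were called higher (91.4%, against 69.1% of all regions). The 2155 regions with a κB motif and no GRE had a median of 0.79 and 798 called higher (37.0%). Under Ad-GFP they had 2.85 and 2127 called higher (98.7%, against 93.7% of all regions). With budesonide alone under Ad-IκBαΔN their median was 0.12, against 1.86 for the regions with a GRE and no κB motif. The 135 regions with both stood between, at 1.25 under Ad-IκBαΔN and 2.70 under Ad-GFP. The 7005 regions with neither motif had 1.59 and 2.45. Better GREs went with larger differences: the median was 2.59 over the 44 regions with a perfect match, of which 43 were called, 2.09 with 1 mismatch, 2.03 with 2, 1.62 with 3, 1.29 with 4 and 1.11 with 5. Under Ad-GFP the order ran the other way, from 1.92 with a perfect match to 2.72 with 5 mismatches. If treated Ad-GFP cells went into the list of GR-bound regions, regions with a κB motif or many GRE mismatches may be listed through them. Their high Ad-GFP values would then follow in part from that list. Of regions with a GRE, it lay within 50 bp of the centre in 3 of 9 below 0 (33.3%, Wilson interval 12.1 to 64.6), 187 of 252 between 1 and 1.5 (74.2%, 68.5 to 79.2), 184 of 201 between 3 and 4 (91.5%, 86.9 to 94.7) and 62 of 75 at 4 or more (82.7%, 72.6 to 89.6), so the share was highest short of the top bin. Of the regions called higher, 19.0% held a GRE by this definition, 4.50% with at most 1 mismatch and 0.58% with none.

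Known glucocorticoid-induced genes carried some of the strongest GR signal. A region was assigned to whichever protein-coding gene had its transcription start site (TSS) closest, up to 100 kb away, and a gene's lead region was the linked one with the highest mean log2 signal over all 6 groups. Treated cells of both viruses entered that choice, so high treated values at lead regions follow in part from it. Of the 170 regions linked to 46 of the 56 genes of the glucocorticoid-induced list, 135 were higher and 0 lower, against 69.1% of all regions, with a median of 1.96 that stayed positive under the scalings tried (0.03 to 1.96) and 108 regions above the median over all regions. Under Ad-GFP 164 were higher (96.5%, against 93.7% of all regions), with a median of 2.71. Budesonide alone under Ad-IκBαΔN had 126 higher (74.1%, against 59.3% of all regions) and a median of 1.97.

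At ZFP36, whose product destabilises inflammatory mRNAs, the lead region on chromosome 19 (39409536 to 39409935, 2.89 kb downstream of the TSS, intergenic) had a signal of 9.31 untreated and 825 with IL1B plus budesonide, an 80.1-fold difference, with 883 after budesonide alone. The same region had 19.9 and 451 under Ad-GFP, 21.6-fold. FKBP5, which encodes a co-chaperone that restrains GR, had 7.56 untreated and 404 treated at an intronic region (chromosome 6, 35722487 to 35722886), 47.3-fold, against 26.4-fold under Ad-GFP. In an intron of PER1, a circadian clock gene (chromosome 17, 8154269 to 8154668), the signal was 9.96 untreated and 435 treated, 39.8-fold against 8.03-fold under Ad-GFP. The differences at these 3 regions were larger with the inhibitor than under Ad-GFP by 1.89, 0.84 and 2.31 on the log2 scale.

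DDIT4, an inhibitor of mTOR signalling, had 9.79 and 419 at the perfect GRE shown above (39.0-fold), and here Ad-GFP had nearly the same fold, 41.6. KLF9, a transcription factor gene, had 6.77 and 252 upstream of its TSS (32.5-fold, against 14.0-fold under Ad-GFP). ERRFI1, whose product restrains EGF receptor signalling, had 7.56 and 208 (24.5-fold, against 29.8-fold). TSC22D3, the gene of the anti-inflammatory protein GILZ, had no linked region because NCBP2L has a nearer TSS, but 2 regions lay in its intron on chromosome X, looked up after the values were seen. One of them (107741760 to 107742159) had 2.36 untreated and 78.4 treated, 23.6-fold against 2.72-fold under Ad-GFP. The other (107718150 to 107718549) had 5.01 and 46.3, 7.87-fold against 8.98-fold under Ad-GFP.

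Not every glucocorticoid-induced gene had more GR. At the lead region of FOXO1, a forkhead transcription factor gene, the signal was 9.18 untreated and 9.67 treated, and at that of SGK1, a kinase that regulates sodium transport, 7.79 and 6.71. Both had a higher signal under Ad-GFP, 69.9 and 40.7 with IL1B plus budesonide, and both belonged to the increasing class. Differences of this size lie inside what a change of scale moves, and that of FOXO1 was negative after re-centring.

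**Figure D3:**
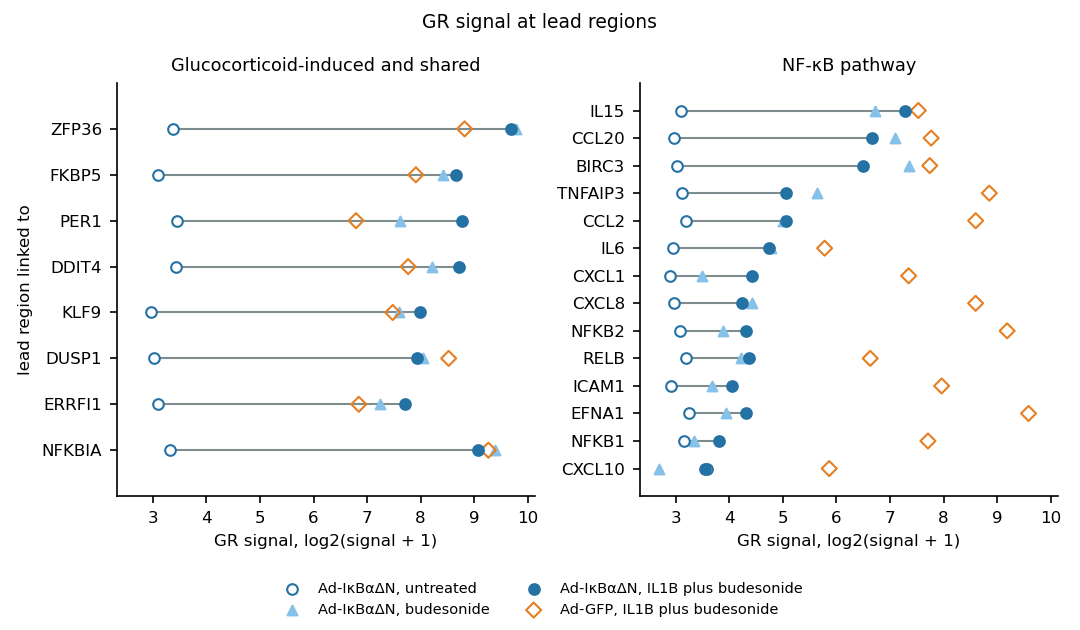
GR signal, as log2(signal + 1), at the lead regions of genes of the glucocorticoid-induced and feedback lists (left) and of NF-κB pathway genes (right); open circles are untreated, triangles budesonide and filled circles IL1B plus budesonide cells under Ad-IκBαΔN, and diamonds IL1B plus budesonide under Ad-GFP, 1 deposited value each. At PER1 the Ad-IκBαΔN signal lies above that of Ad-GFP (435 and 110), while at CXCL8 it lies far below (17.7 and 387). The small positive differences at CXCL8, NFKB2, RELB, ICAM1, EFNA1 and NFKB1 are negative after re-centring.

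NF-κB-dependent inflammatory genes had smaller differences. Of 142 regions linked to 49 of 60 such genes, 81 were higher and 1 lower, against 69.1% of all regions, with a median of 1.12 that was -0.37 after re-centring, -0.28 after quantile normalization and -0.82 after centring on the unchanged class. Only 41 regions stood above the median over all regions. Under Ad-GFP 140 of the 142 were higher (98.6%, against 93.7% of all regions), with a median of 3.36. The list was thus above the median of all regions there and below it with the inhibitor. The authors' increasing class held 112 of the 142. Budesonide alone under Ad-IκBαΔN had 45 of the 142 higher (31.7%, against 59.3% of all regions) and 1 lower (0.70%, against 1.06%). The median was 0.47. Subtracting Ad-GFP from Ad-IκBαΔN left 119 of 142 at least 2-fold lower and 0 higher, against 48.3% and 7.75% of all regions.

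Several chemokine and adhesion genes had smaller differences with the inhibitor than under Ad-GFP at their lead regions. Signal of treated Ad-GFP cells entered the choice of lead regions, so a large Ad-GFP difference there is partly built in. CXCL8 encodes a chemokine for neutrophils, and at its promoter (chromosome 4, 73740278 to 73740677), the signal was 6.85 untreated and 17.7 treated under Ad-IκBαΔN, against 4.25 and 387 under Ad-GFP. CCL2, a monocyte chemokine, had 8.07 and 32.3 with the inhibitor (3.67-fold) and 24.8-fold under Ad-GFP, at the κB region shown above. CXCL1, a related chemokine, had 6.41 and 20.6 at its promoter, and ICAM1, an adhesion molecule for leukocytes, 6.55 and 15.6. At CXCL10, a T-cell chemokine, the signal was 10.9 untreated and 10.7 treated, against 3.06 untreated and 57.3 treated under Ad-GFP. EFNA1, an ephrin ligand, had 8.45 and 18.8, while treated Ad-GFP cells reached 768. IL6, an interleukin gene, differed little between viruses at its lead region 52.3 kb upstream, in an intron of STEAP1B, with 3.46-fold and 3.82-fold.

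The genes of NF-κB subunits had small differences too. NFKB2 had 7.45 untreated and 18.9 treated in its untranslated sequence under Ad-IκBαΔN, and 582 treated under Ad-GFP. NFKB1 had 7.87 and 13.1, with 208 under Ad-GFP, and RELB 8.08 and 19.7, with 98.1 under Ad-GFP. The differences of CXCL8, EFNA1, NFKB2, RELB, ICAM1 and NFKB1 were positive as deposited and negative after re-centring, and those of CCL2, CXCL1 and IL6 were negative only after centring on the unchanged class, among the scalings tried.

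A few inflammatory genes kept a large difference. IL15, a lymphocyte growth factor, had 7.5 untreated and 155 treated at a region 70.9 kb upstream (18.3-fold, against 48.1-fold under Ad-GFP). CCL20, a chemokine of dendritic cells, had 6.80 and 100.2 at 12.7 kb downstream (13.0-fold, against 37.7-fold), and BIRC3, an inhibitor of apoptosis, 7.13 and 89.4 at 11.0 kb upstream (11.1-fold, against 40.9-fold). At all 3 the signal was already 104 or more with budesonide alone under the same virus. CSF3, the granulocyte growth factor gene, had 6.32-fold at a region in an intron of MED24, close to its 6.67-fold under Ad-GFP. None of these 4 regions held a κB motif, which 43.7% of the regions of the inflammatory list and 21.3% of all regions held. MMP10, a matrix protease gene, had 9.11 and 10.5.

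Genes that limit NF-κB signalling lay between these groups. Of 101 regions linked to 26 of 36 feedback genes, 68 were higher and 0 lower, close to the 69.1% of all regions, and the median of 1.47 was close to the 1.48 of all regions and was -0.02 after re-centring, -0.25 after quantile normalization and -0.47 after centring on the unchanged class. Under Ad-GFP 99 were higher (98.0%, against 93.7% of all regions), with a median of 3.10. The list shares ZFP36 and DUSP1 with the glucocorticoid-induced list and BIRC3 with the inflammatory one. NFKBIA, the gene of IκBα itself, had 9.04 untreated and 535 treated in its untranslated sequence (chromosome 14, 35403826 to 35404225), 53.4-fold against 39.7-fold under Ad-GFP, with 668 after budesonide alone. GR signal there was thus large under both viruses although the region holds a κB motif. DUSP1, a phosphatase that switches off MAP kinases, had 7.09 and 244 upstream of its TSS, 30.3-fold against 35.4-fold. TNFAIP3, the ubiquitin-editing enzyme A20, was unlike them, with 7.63 and 32.2 at 55.6 kb upstream (3.85-fold), where treated Ad-GFP cells had 462 (58.5-fold). CYLD, a deubiquitinase gene, and TNIP2 had 1.40-fold and 1.36-fold, and both were negative after re-centring.

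The medians of the other 5 lists lay between 1.26 and 1.91, on either side of the 1.48 of all regions. AP-1 and immediate early genes had 26 of 40 regions higher (65.0%, against 69.1% of all regions). Their median was 1.39, which was -0.09 after re-centring. Under Ad-GFP 40 of 40 were higher, against 93.7% of all regions, with a median of 2.63. MAFK, a small MAF factor gene, had 8.32 and 109 (11.8-fold, against 51.9-fold under Ad-GFP), MYC 14.9-fold, and FOSL2 and FOS, whose products form AP-1, 7.79-fold and 5.28-fold, although FOS was at -0.03 on the log2 scale after quantile normalization. IER5 was 1.98-fold and EGR3 1.47-fold higher, both negative after re-centring. GR partners and coregulators had 34 of 46 regions higher (73.9%, against 69.1% of all regions). Their median of 1.42 was below that of all regions. NFIC was at 13.0-fold, NCOA3, a coactivator gene, at 8.55-fold and CEBPB at 8.15-fold. NFIB had 10.7 untreated and 13.2 treated. NR3C2, which encodes the mineralocorticoid receptor, had 8.98 and 5.99 at the intronic κB region shown above, and Ad-GFP cells had 0.82 and 38.5. Against untreated Ad-GFP cells in place of untreated Ad-IκBαΔN cells, the log2 differences at NR3C2 and CXCL10 were 1.94 and 1.53.

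Lung epithelial genes had 29 of 42 regions higher (69.0%, against 69.1% of all regions) and a median of 1.72. The lead regions of KRT18, a keratin gene, in an intron of KRT8 and of KRT7 were 25.5-fold and 23.4-fold higher, and KRT7 was only 4.72-fold higher under Ad-GFP. SLC34A2, a phosphate transporter of alveolar type II cells, was 14.9-fold and GRHL2, an epithelial transcription factor, 7.48-fold higher. FOXA1 was 1.26-fold and ABCA3, a surfactant lipid transporter, 1.14-fold higher, both negative after re-centring. Markers of other cell types had 9 regions at 5 of 20 genes, 6 of them higher (66.7%), with a median of 1.26. RBFOX3, a neuronal marker, was at 5.91-fold, PECAM1 and VWF, endothelial markers, at 4.77-fold and 2.03-fold, COL1A1, a fibroblast collagen, at 3.78-fold and PTPRC, the leukocyte marker CD45, at 1.52-fold; VWF and PTPRC were negative after re-centring and COL1A1 after centring on the unchanged class. Housekeeping genes had 5 of 6 regions higher (83.3%, against 69.1% of all regions) and a median of 1.91. ACTB was at 3.24-fold and YWHAZ at 2.15-fold. YWHAZ was negative after re-centring and ACTB after quantile normalization.

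**Figure D4:**
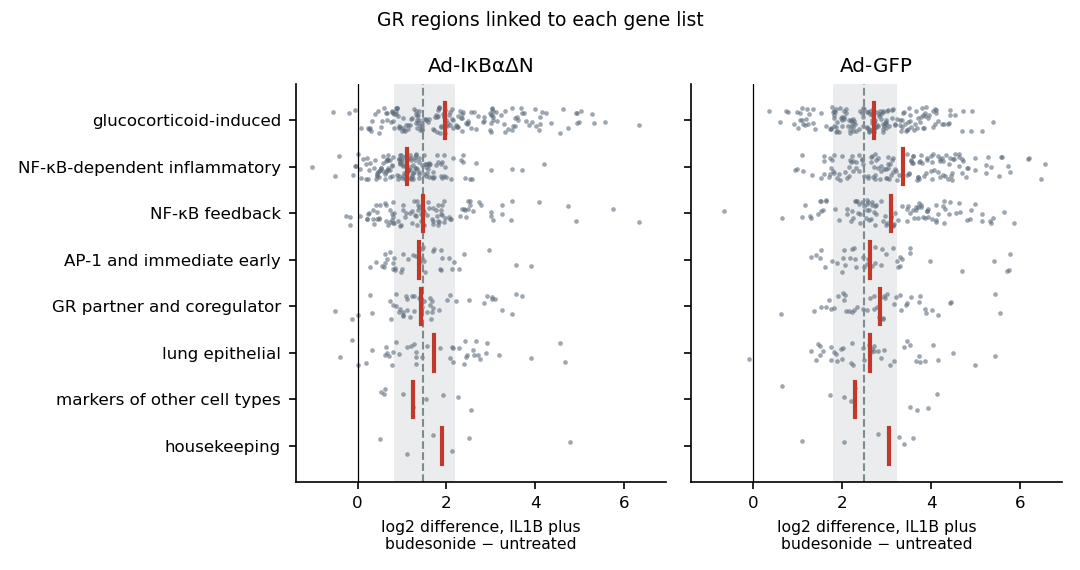
Log2 difference, IL1B plus budesonide minus untreated, of every region linked to a gene of each list under Ad-IκBαΔN (left) and Ad-GFP (right); points are regions, spread vertically at random, red bars are list medians, and the grey band and dashed line are the quartiles and median of all regions. The inflammatory list lies left of the dashed line with the inhibitor (1.12) and right of it under Ad-GFP (3.36); its Ad-IκBαΔN median is -0.37 after re-centring.

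Outside the lists, the region with the largest difference of all lay 16.4 kb upstream of PRR20G (chromosome 3, 127304227 to 127304626), with 6.46 untreated and 1150.2 treated, 154-fold against 87.3-fold under Ad-GFP. Next among regions with a linked gene came DECR1 at 97.6-fold, in an intron of NBN, and an intron of CDC123 at 96.0-fold, against 11.2-fold and 16.1-fold under Ad-GFP. These 3 regions lie in tandem repeats, with 37.3%, 26.0% and 51.4% of their 12-base words occurring more than once in the region, against a median of 0 over all regions, so reads may have been shared between copies and their values are uncertain. SLC45A1 (5.69 and 544, 81.4-fold) and TSPYL2 (4.34 and 337, 63.2-fold) had no such repeats. A region in an intron of ZBTB16 linked to NNMT was 65.2-fold higher, LEKR1 52.3-fold and PTPN1, a tyrosine phosphatase gene, 49.7-fold at 94.5 kb upstream. None of these 8 held a κB motif, which 2.94% of the 204 regions at 4 or more and 21.3% of all regions held.

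The opposite end of the table had low signal in both groups. The 8 lowest linked regions outside the lists ranged from a log2 difference of -1.51 at RASA3 to -0.73 at COL6A6, with signals of 4.35 to 10.2 untreated and 0.88 to 5.17 treated. All 8 held a κB motif, against 46.9% of the 356 regions below 0 and 21.3% of all regions. RASA3, the gene of a RAS inhibitor, had 4.35 untreated and 0.88 treated in its intron, and untreated Ad-GFP cells were listed at 0 there, so against that baseline its difference was 0.91 in place of -1.51. CTAGE1 had 10.2 and 3.25. DYNLT5, MCTP1, ELOA and ZSCAN23 lay between -0.87 and -0.76. The other 3 regions called lower, chosen after their values were seen, were nearest to SALL3 (-1.27), MARCKS (-1.02) and CXCL8 (-1.01, 57.7 kb upstream of its TSS). Those nearest to MARCKS and CXCL8 held no κB motif. In treated Ad-GFP cells these 5 regions had signals from 9.46 to 101.3, and 0 of all 10740 regions were called lower there.

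Several regions of 1 gene could differ as much as regions of different genes. FKBP5 had 5 regions between 1.81 and 5.57, all called higher, and DUSP1 had 8 between 0.25 and 4.92, of which the 3 within 5 kb upstream of the TSS were at 2.99 or more. NFKBIA had 9 regions from 0.34 to 5.74, with 4.08 at 13.7 kb and 3.25 at 30.2 kb downstream. At BIRC3 the promoter region with the κB motif shown above was at 1.87 against 4.97 under Ad-GFP, while 2 regions 24.2 kb upstream and 3.37 kb downstream were at 1.58 and 3.01, above their 1.09 and 2.75 under Ad-GFP. TNFAIP3 had 9 regions between -0.17 and 2.79, all below their Ad-GFP values, and the highest lay 6.32 kb into the gene. CXCL8 had 6 between -1.01 and 1.25, where Ad-GFP ranged from 1.72 to 6.47, and ICAM1 4 between -0.41 and 1.13. Regions of 1 locus share its chromatin and are not replicates.

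**Figure D5:**
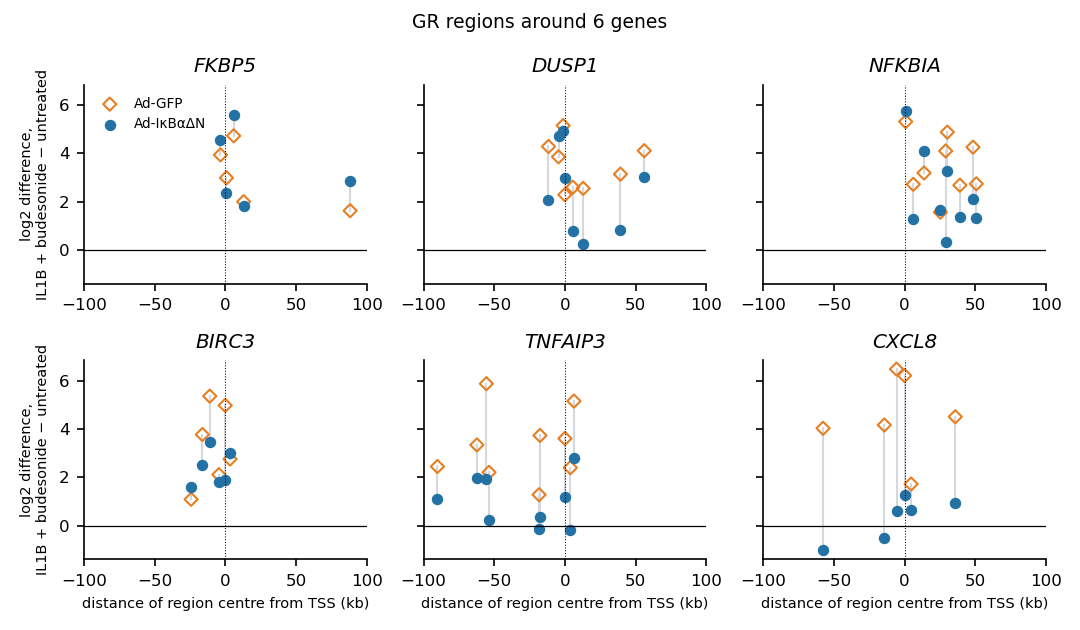
Log2 difference, IL1B plus budesonide minus untreated, of each linked region by distance of its centre from the TSS in kb, in the direction of transcription, at 6 genes; filled circles are Ad-IκBαΔN, diamonds Ad-GFP, and grey lines join the values of 1 region. At CXCL8 and TNFAIP3 every circle lies below its diamond, and at FKBP5 regions lie on either side (5.57 and 4.72 at the highest). Circles under 1.48 are negative after re-centring.

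Several loci carried many GR regions. Over all regions the median was 1.48 and 69.1% of regions stood at 1 or more. Genes with fewer than 6 linked regions were not counted in this way. Of 110 genes with at least 6 linked regions, 98 had a median difference of 1 or more. When most regions pass 1, a median over several regions passes it more often than a single region does. This count is therefore not comparable with the 69.1% of regions. Those with high medians included ZMYND8, a chromatin reader gene, with 9 regions from 1.45 to 4.81 and a median of 3.06, PDK4, a metabolic kinase gene, with 6 regions and 3.06, EHF, an epithelial factor gene, with 7 and 3.07, and PTPN1 with 10 regions from 0.45 to 5.64 and 2.94. The 8 regions of CCDC200 had nearly the same value, 2.54 to 3.23, but share a median of 95.6% of their 12-base words, so they are near-identical copies among which reads may have been divided and are uncertain. Regions in crowded surroundings had larger differences, with a median of 1.37 for 5641 regions with no other region within 20 kb and 1.84 for 195 with at least 5. Position relative to genes made little difference, with medians of 1.45 within 1 kb of a TSS, 1.52 at 10 to 50 kb and 1.44 beyond 100 kb, and of 1.49 in introns and 1.47 in intergenic sequence.

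At the 12 linked regions with the widest gaps below Ad-GFP, the log2 difference under Ad-IκBαΔN lay between -0.50 and 1.15. An intronic region of TULP4 had 6.38 untreated and 4.23 treated with the inhibitor, and 1.11 and 127 under Ad-GFP, a gap of -6.42 on the log2 scale. BID, a cell death gene, and NCOA7 followed with -6.00 and -5.92, where treated Ad-GFP cells had 273 and 190.0 and treated Ad-IκBαΔN cells 6.56 and 6.22. The region at SERPINA2, with 84.3% of its 12-base words repeated and therefore uncertain, had 19.1 treated against 1520.4 under Ad-GFP. In the other direction the largest gap among linked regions, 3.19, lay in an intron of FAM104A nearest to C17orf80. Treated signal there was 386 under Ad-IκBαΔN and 46.0 under Ad-GFP. Next among linked regions came the first of the TSC22D3 intronic regions described above, at 3.12. Over all regions the largest gap was 3.23, at a region over 100 kb from a TSS. A change of scale in 1 group would shift all of these gaps in the same direction, by less where its signal is low.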

How the data were processed

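ChIP-seq libraries of A549 cells were sequenced by the authors, whose processing notes, per the labels, name the build GRCh38 (hg38) and the tools Bowtie2 2.4.4, MACS2 2.2.7.1, DiffBind 3.2, SAMtools, FastQC 0.10.1 and bcl2fastq. The authors deposited, for each region, 1 log2 binding intensity in every group and its log2 difference from untreated cells of the same virus. The sources used here do not say how libraries were combined or scaled, and library depth is unknown. The values fit log2(signal + 1). Signal times 400 bp fell on whole multiples of 1.5 in treated Ad-IκBαΔN cells (100% of regions), of 3 in treated Ad-GFP cells, and of no step in untreated Ad-IκBαΔN cells, whose log2 values had an SD of only 0.30 across regions.

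Differences, counts, medians, motif matches (hg38), Wilson 95% intervals and GENCODE 44 links were computed with Python 3.11.15, matplotlib 3.10.9, scipy 1.17.1, pandas 2.3.3 and numpy 2.4.6, and counting was tested on simulated data. No test between groups was possible. Coordinates count from 1. Named genes were the 4 highest and 2 lowest lead regions of each list, 20 pathway genes, and the 8 highest and 8 lowest linked regions outside the lists, of which a few are not reported here; widest gaps between viruses, multi-region loci and repeats were chosen after seeing the data. The comparison, gene lists and motifs were chosen with earlier results of these data known. The RELA and input libraries were left out, since the table covers GR only.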

Additional observations from a re-analysis of the deposited data

Results flagged for a closer look

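At 10 named regions the log2 difference between IL1B plus budesonide and untreated cells was negative under Ad-IκBαΔN and positive under Ad-GFP. With 1 deposited value per group, this difference between viruses was not tested. In the authors' increasing class it held for CTAGE1 (-1.40), DYNLT5 (-0.87), MCTP1 (-0.85), ELOA (-0.82), ZSCAN23 (-0.76), COL6A6 (-0.73), NR3C2 (-0.52), SGK1 (-0.19) and CXCL10 (-0.028), and in the unchanged class for RASA3 (-1.51). Under Ad-GFP NR3C2 was at 4.44, CXCL10 at 3.85 and SGK1 at 1.88. Against untreated Ad-GFP cells in place of untreated Ad-IκBαΔN cells, 5 of the 10 were positive, namely NR3C2 (1.94), CXCL10 (1.53), RASA3 (0.91, where untreated Ad-GFP cells were listed at 0), DYNLT5 (0.19) and ZSCAN23 (0.16), so for these the sign depends on the untreated group used. All 10 regions held a κB motif, against 46.9% of all 356 regions below 0. NR3C2, SGK1 and CXCL10 were named as the lowest lead regions of their lists. The others were the lowest linked regions outside the lists, chosen by their difference and not as lead regions. Negative values follow from these choices. Under Ad-GFP 0 of all 10740 regions were called lower and 93.7% were called higher, so positive values there were common to most regions.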

How the results depend on the processing

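No paired analysis was possible because the deposited table holds 1 value per group; leaving out a library and a replicate block were therefore not run. The scale of each group is the main limit, and the cause of the shifts was not tested. After the groups were re-centred to a common median, quantile normalized or centred on the unchanged class, in this order, regions at least 2-fold higher numbered 1789, 2219 and 1003 and regions lower 1413, 2279 and 3041, so that 55.9%, 49.3% and 24.8% of calls were higher against 99.9% as deposited. The median over all regions was then -0.0042, -0.012 and -0.46, that of the increasing class -0.62, -0.64 and -1.07, of the unchanged class 0.46, 0.41 and 0.0073, and of the decreasing class 0.37, 0.39 and -0.079. The list medians were 0.48, 0.56 and 0.028 for glucocorticoid-induced, -0.37, -0.28 and -0.82 for inflammatory, -0.017, -0.25 and -0.47 for feedback and -0.094, -0.36 and -0.55 for AP-1 genes, and the GRE share of higher regions was 28.6%, 26.2% and 30.2%. Among named lead regions called higher, those that turned negative under all 3 were VWF (-0.46, -0.99 and -0.91), YWHAZ (-0.38, -0.65 and -0.83), EFNA1 (-0.42, -0.66 and -0.87), NFKB2 (-0.25, -0.10 and -0.70) and RELB (-0.30, -0.40 and -0.75). CXCL8 (-0.23 and -0.68) and ICAM1 (-0.35 and -0.80) did so after re-centring and class centring, ACTB after quantile normalization (-0.36) and class centring (-0.24), FOS after quantile normalization (-0.027), and COL1A1 (-0.019), CCL2 (-0.062), IL6 (-0.15) and CXCL1 (-0.40) after class centring.

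With the steps divided out, 40 regions were lower, and the medians were 0.93 over all regions, 0.32, 1.38 and 1.29 in the increasing, unchanged and decreasing classes, 1.40 for glucocorticoid-induced, 0.59 for inflammatory, 0.91 for feedback and 0.84 for AP-1 genes, with a GRE share of 22.1%. With a pseudocount of 5, 0 regions were lower, and the medians were 1.15 over all regions, 1.57 and 1.48 in the unchanged and decreasing classes, and 1.60, 0.83, 1.14 and 1.04 for the 4 lists, with a GRE share of 20.8%. With a pseudocount of 0.1, 10 regions were lower. When the 25% of regions with least signal were dropped, 1 region was lower and the medians were 1.76 over all regions and 2.26 for glucocorticoid-induced genes. Thresholds of 1.5-fold and 4-fold left 26 and 0 regions lower, and 4-fold left 3270 higher. Lead regions alone had medians of 3.43, 1.85 and 1.79 for glucocorticoid-induced, feedback and AP-1 genes. Stricter GREs gave shares of 4.50% and 0.58%. With untreated Ad-GFP cells as the baseline, RASA3, called lower, turned to 0.91, and regions not called changed sign at NR3C2 (1.94), CXCL10 (1.53), DYNLT5 (0.19), ZSCAN23 (0.16) and EGR3 (-0.15).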
